A study of Caenorhabditis elegans with 26 samples.

Results

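The miRNAs of larvae carrying *mir-235(xe181[seed_mutant])* were compared between 28, 29 and 30 h and 18, 19 and 20 h after arrested L1 larvae were put on food at 25 °C. The mutant strain, HW2643 or *mir-235(seed_mut)*, is one in which genome editing changed the seed of miR-235-3p on both strands of the hairpin. The 6 libraries, 3 per window, are 6 of the 26 of a time course that sampled the mutant and wild-type N2 hourly from 18 h to 30 h, with 13 libraries per strain. Each library was small RNA of pooled whole animals, and each hour was sampled once from a single culture series, so the 3 hours of a window stand in for replicates. Differences are late minus early throughout, and the same windows of N2, with 3 libraries each, were set beside the mutant.

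miRNAs are cut from hairpin precursors, and the strand loaded into Argonaute, the guide, pairs with mRNAs through its seed, while the opposite passenger strand is usually degraded. In *C. elegans* larvae a few miRNAs act as developmental timers: *lin-4* and the *let-7* family repress the heterochronic genes that hold cells in earlier stage programmes. Levels of mature miRNAs change with the balance of transcription, processing and decay, and many miRNAs are restricted to particular tissues. In whole animals, fewer cells of a type and less RNA per cell cannot be told apart.

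Library totals were 3831159, 2964249 and 3046923 counts at 28, 29 and 30 h, and 3435807, 3827743 and 3104354 counts at 18, 19 and 20 h. Levels are in CPM, that is, counts scaled to a common library total. Of 437 miRNAs listed after the reads of both miR-235 alleles had been added per arm, 366 had a count in these 6 libraries, and the 227 that passed the low-count filter held 99.99% of counts. Reads of the wild-type miR-235-3p sequence made up 0.0121% to 0.264% of miR-235-3p counts in the 6 libraries, so the allele matched the label. The library of 18 h differed from the other early libraries in miR-58a-3p, the most abundant miRNA, which was at 104946 CPM there, against 199429 and 171431 CPM at 19 and 20 h. Over all miRNAs it also stood apart, with a chi-square per degree of freedom of 1065 and 833 against 19 and 20 h, which gave 137 between them. The library of 28 h stood apart from 29 and 30 h less strongly, at 417 and 527, against 98.4 between those.

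Between the windows more miRNAs passed the test as rises than as falls. In the late libraries 20 miRNAs from 14 hairpins rose, 8.81% of those tested, and 5 from 4 hairpins fell, 2.2% of those tested (edgeR quasi-likelihood test, Benjamini-Hochberg adjusted p below 0.01). The rises were the larger changes: 16 of the 20 exceeded 3 on the log2 scale, while the falls lay between -1.66 and -0.88. In all 25 the late and early libraries did not overlap in CPM, whereas over all 227 miRNAs 45 were higher without overlap (19.8%) and 74 were lower without overlap (32.6%). The falls were less stable than the rises. Scaling by total counts in place of TMM shifted the median log2 difference of all miRNAs from -0.0025 to -0.19 and gave 20 rises and 12 falls (20 and 5 with TMM), so that 62.5% of calls were rises, against 80% with TMM. Without the library of 29 h 18 rises and 0 falls were called, without that of 28 h 26 rises and 10 falls, and without that of 18 h 17 rises and 2 falls.

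**Figure D1:**
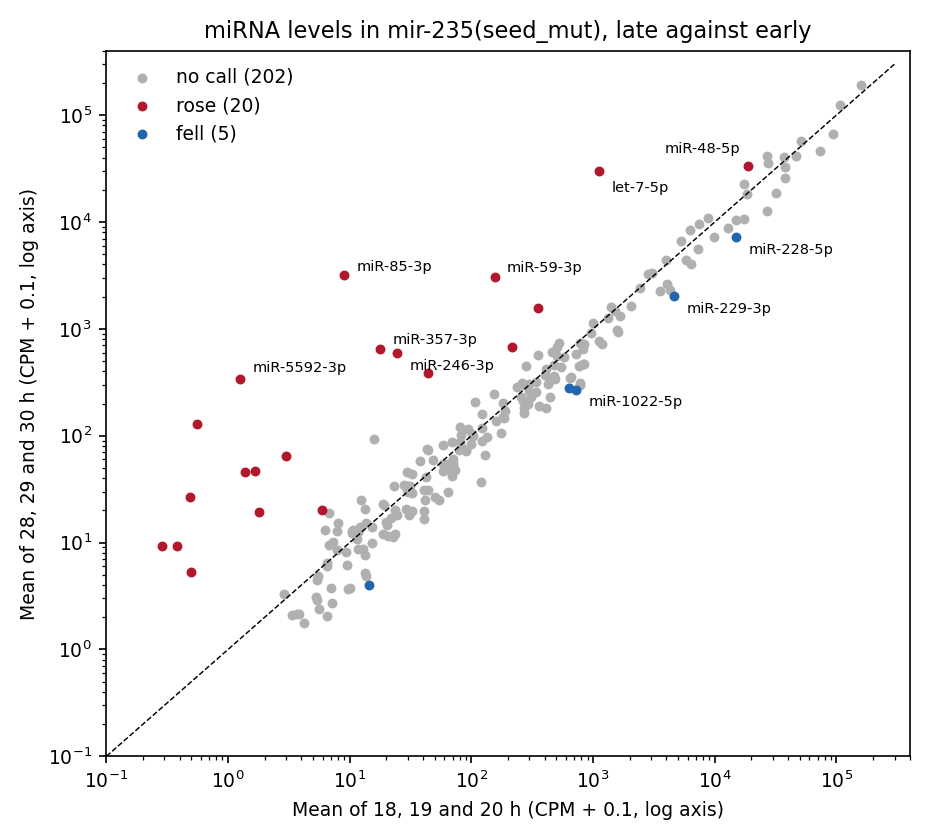
Mean CPM of 28, 29 and 30 h (vertical) against mean CPM of 18, 19 and 20 h (horizontal) in the mutant, both on log axes after adding 0.1, with a point for each of the 227 miRNAs tested and a dashed line of equal levels. The 20 that rose are red and lie far above the line mostly at low early levels, and the 5 that fell are blue and lie close below it.

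These changes touched a small share of the counts. The 20 miRNAs that rose together took 7.45% ± 1.38 of counts late and 2.06% ± 0.399 early (SD, n = 3 each), and most of that was let-7-5p and miR-48-5p. The other 18 took 1.09% ± 0.335 late and 0.0832% ± 0.0058 early (SD, n = 3 each). The 10 most abundant miRNAs took 66.6% ± 0.767 late and 66.9% ± 1.29 early (SD, n = 3 each), and none of the 10 passed the test.

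The largest rise was that of miR-85-3p. It had 1542, 2885 and 5167 CPM at 28, 29 and 30 h, against 2.33, 13.8 and 10.6 CPM at 18, 19 and 20 h. The late hours lay far above all early ones, and the level was higher at each later hour of the window. The log2 difference was 8.65 ± 0.74 (SE, edgeR adjusted p = 5.0e-05). Its adjusted p was 0.0144 without the library of 20 h, with a log2 difference of 8.77, and it kept the call without any other library. Its gene lies on chromosome II, on the opposite strand of *F49E12.8*.

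Both arms of miR-5592 came up from almost no reads. miR-5592-3p had 216, 351 and 457 CPM late, against 1.16, 1.31 and 0.966 CPM early, a log2 difference of 8.34 ± 0.43 (SE, edgeR adjusted p = 1.3e-07). miR-5592-5p had 89.3, 119 and 181 CPM late, against 0.582, 0.784 and 0 CPM early, where a count of 0 at 20 h allows up to 0.966 CPM (3 counts). Its early counts were 5 in all against 1247 late, a ratio of library-scaled counts of 263 with an exact 95% interval of 112 to 811 that covers counting error only. The log2 difference of the 5p arm was 8.15 ± 0.55 (SE, edgeR adjusted p = 1.2e-06). The annotation has 2 overlapping miR-5592 genes on opposite strands of chromosome X, so the arm and locus behind these reads are uncertain.

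miR-357 and miR-358 are encoded as neighbours on chromosome V, on the strand opposite *symk-1*, and rose together. miR-357-3p had 567, 615 and 778 CPM late, against 14.8, 18.0 and 20.3 CPM early (log2 difference 5.39 ± 0.26, SE, edgeR adjusted p = 9.1e-08). miR-358-3p was the weaker product, with 18.0, 24.6 and 37.4 CPM late, against 0, 0.523 and 0.644 CPM early, and a log2 difference of 6.15 ± 0.57 (SE, edgeR adjusted p = 2.6e-05). Its passenger, miR-358-5p, reached at most 13.2 CPM and had 3 early counts in all, against 90 late, a scaled ratio of 31.6 (exact 95% interval 10.5 to 156).

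miR-240 and miR-786, a second pair of neighbours on chromosome X, also rose on all 4 arms. miR-786 is known for setting the defecation rhythm through the intestine. miR-786-3p had 32.6, 38.8 and 66.6 CPM late, against 0, 1.57 and 2.25 CPM early (log2 difference 5.33 ± 0.61, SE, edgeR adjusted p = 0.00017). miR-240-5p, the more abundant arm of its hairpin, had 326, 404 and 436 CPM late, against 33.2, 26.9 and 72.8 CPM early (log2 difference 3.33 ± 0.37, SE, edgeR adjusted p = 6.9e-05). The scarcer miR-240-3p rose by 4.65 ± 0.60 and miR-786-5p by 3.69 ± 0.55 on the log2 scale (SE). The 5p to 3p ratio of miR-240 overlapped between the windows, and that of miR-786 was lower late without overlap but rested on at most 11 counts per arm in an early library.

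miR-59-3p and miR-246-3p, each from a gene of its own on chromosome IV, showed different time courses behind similar rises. miR-59-3p was level within the late window, with 3200, 3076 and 2981 CPM, against 141, 165 and 159 CPM early (log2 difference 4.50 ± 0.18, SE, edgeR adjusted p = 3.0e-08). miR-246-3p, a miRNA linked to stress resistance and lifespan in adults, was still climbing, with 287, 564 and 926 CPM late, against 17.2, 28.5 and 28.0 CPM early (log2 difference 4.78 ± 0.46, SE, edgeR adjusted p = 5.0e-05). Its passenger miR-246-5p had 87 counts late and 2 early over the 3 libraries of each window, a scaled ratio of 45.8 (exact 95% interval 12.3 to 384).

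The remaining rises were smaller, rarer or rested on few libraries. miR-1817 had 9.92, 41.5 and 88.3 CPM late, against 0.582, 2.87 and 1.29 CPM early (log2 difference 4.99 ± 0.88, SE, edgeR adjusted p = 0.0043), and the call was lost without the library of 29, 18, 19 or 20 h, with adjusted p between 0.0153 and 0.078. miR-77 rose on both arms: miR-77-5p had 679, 1868 and 2174 CPM late, against 414, 361 and 280 CPM early, and miR-77-3p had 554, 631 and 834 CPM late, against 133, 226 and 281 CPM early. The log2 differences were 2.35 ± 0.40 for the 5p arm and 1.84 ± 0.29 for the 3p arm (SE), and the call of the 5p arm was lost without the library of 18 h (adjusted p = 0.0282) or 19 h (adjusted p = 0.047). miR-359 had 14.9, 15.5 and 29.2 CPM late, against 4.07, 7.84 and 5.48 CPM early, and lost its call without the library of 18 h (adjusted p = 0.0282, log2 difference 1.75). miR-58c had at most 6.89 CPM in any of the 6 libraries.

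**Figure D2:**
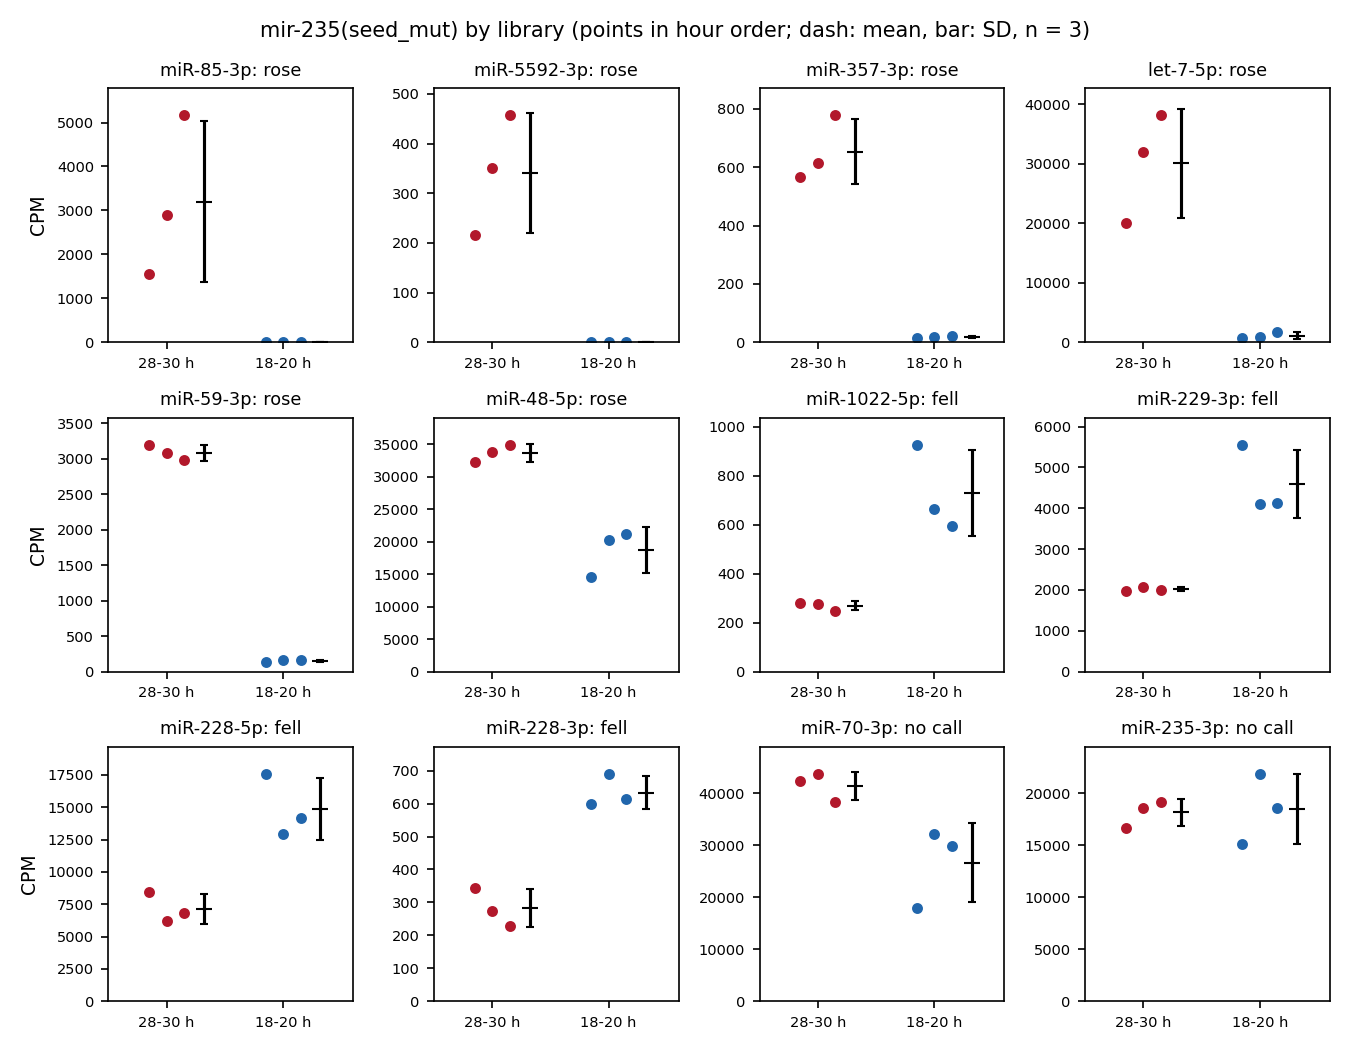
CPM in each of the 6 mutant libraries for 12 miRNAs, with the late hours in red on the left, the early hours in blue on the right and the mean with its SD (n = 3) beside each window; each panel has its own vertical axis from 0. miR-85-3p, miR-5592-3p, miR-357-3p, let-7-5p and miR-59-3p stand near 0 early, the changes of miR-48-5p and the falls are close to a factor of 2, and miR-235-3p overlaps between the windows.

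The *let-7* family, which shares a seed and drives the later larval transitions, took 7.63% ± 0.841 of counts late and 3.16% ± 0.383 early (SD, n = 3 each). Of its 7 members 2 rose, let-7-5p and miR-48-5p, and none fell, where 8.81% of all miRNAs tested rose. The median log2 difference of the 7 was 0.56, against -0.0025 over all miRNAs. let-7-5p, which represses *lin-41* at the transition to adulthood, had 20063, 31923 and 38148 CPM late, against 751, 830 and 1765 CPM early. All late hours exceeded the early ones more than 10-fold, and the log2 difference was 4.95 ± 0.41 (SE, edgeR adjusted p = 2.8e-05). It was by far the most abundant of the miRNAs that rose by more than 3 on the log2 scale.

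The 3 closest relatives of let-7-5p, which repress *hbl-1* in earlier larvae, had smaller differences. miR-48-5p had 32200, 33752 and 34896 CPM late, against 14624, 20287 and 21130 CPM early, without overlap (log2 difference 1.03 ± 0.18, SE, edgeR adjusted p = 0.0018), and its call was lost without the library of 29 h (adjusted p = 0.011). miR-241-5p had 191, 270 and 272 CPM late, against 110, 178 and 169 CPM early (log2 difference 0.87 ± 0.26, SE, edgeR adjusted p = 0.036). miR-84-5p overlapped between the windows, with 12520, 7759 and 8696 CPM late, against 6703, 7446 and 8024 CPM early (log2 difference 0.56 ± 0.19, SE, edgeR adjusted p = 0.050).

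The 3 divergent members had negative differences that missed the threshold: -0.72 for miR-793, -0.30 for miR-794-5p and -0.45 for miR-795-5p on the log2 scale. let-7-3p, the passenger, had 53.2, 122 and 101 CPM late, against 2.91, 9.14 and 35.4 CPM early. The windows did not overlap, yet the early hours spread more than 10-fold among themselves and the log2 difference of 2.76 ± 0.74 (SE) missed the threshold (edgeR, adjusted p = 0.028). The log2 ratio of 5p to 3p counts of *let-7*, with 0.5 added to each arm, was 8.55, 8.03 and 8.55 late, against 7.94, 6.48 and 5.63 early. The windows came closest at 18 h and 29 h, and the ratio at 18 h rested on 10 counts of let-7-3p.

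lin-4-5p, which represses *lin-14* and *lin-28*, had 277, 378 and 428 CPM late, against 512, 467 and 454 CPM early. The levels were lower late without overlap, but the log2 difference of -0.22 ± 0.22 (SE) did not pass the test (edgeR, adjusted p = 0.48). Its family member miR-237-5p, far more abundant, had 10557, 9702 and 12610 CPM late, against 12104, 6673 and 7537 CPM early (log2 difference 0.50 ± 0.23, SE, edgeR adjusted p = 0.11). Neither lin-4-5p nor miR-237-5p was called.

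Falls were modest and came mainly from 3 hairpins. miR-1022-5p had 281, 278 and 249 CPM late, against 926, 666 and 594 CPM early (log2 difference -1.25 ± 0.22, SE, edgeR adjusted p = 0.0023), and its adjusted p was 0.0122 without the library of 29 h. miR-228 fell on both arms: the guide miR-228-5p had 8449, 6179 and 6840 CPM late, against 17549, 12923 and 14194 CPM early, and miR-228-3p had 342, 275 and 227 CPM late, against 598, 689 and 614 CPM early. The log2 differences were -0.88 ± 0.18 for the guide and -0.99 ± 0.21 for the passenger (SE). Both calls were fragile: that of miR-228-5p was lost without the library of 29, 30 or 18 h (adjusted p between 0.0111 and 0.049) and that of miR-228-3p without the library of 29, 30, 18, 19 or 20 h (adjusted p between 0.0121 and 0.053).

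The arms of miR-229 parted. miR-229-3p had 1967, 2065 and 2009 CPM late, against 5556, 4094 and 4141 CPM early (log2 difference -1.01 ± 0.17, SE, edgeR adjusted p = 0.0018), with an adjusted p of 0.011 without the library of 29 h. miR-229-5p had 8324, 5459 and 6145 CPM late, against 4898, 5038 and 5765 CPM early (log2 difference 0.52 ± 0.18, SE, edgeR adjusted p = 0.051). The log2 ratio of 5p to 3p counts, again with 0.5 added, was 2.08, 1.40 and 1.61 late, against -0.18, 0.30 and 0.48 early, so the windows did not overlap in arm usage. The gene lies on chromosome III within *gcn-1*, beside *mir-64*, *mir-65* and *mir-66*. miR-2221, outside the naming rule for its mean of 31 counts and chosen after its values were seen, had 4.18, 4.05 and 3.61 CPM late, against 19.2, 10.2 and 13.5 CPM early, and its call was lost without the library of 28, 29, 30 or 18 h (adjusted p between 0.0156 and 0.0252).

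The log2 differences of guide and passenger had the same sign in 62 of 79 hairpins with both arms tested. Of the 79, 6 rose on both arms, 1 fell on both arms, 3 had a call on a single arm and 69 on neither, and none had opposite calls. The 3 with a single call were *let-7*, miR-48 and miR-229, and in all 3 the 5p to 3p ratio was higher in every late library than in any early one. For *let-7* the ratio at 18 h rested on 10 counts of let-7-3p. Over all 79, the arm ratio was higher without overlap in 11 hairpins and lower without overlap in 9.

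miR-235-3p, the edited miRNA and the worm's single miR-92 relative, did not differ between the windows beyond their spread. It had 16689, 18643 and 19172 CPM late, against 15147, 21849 and 18572 CPM early, so the late hours lay within the early range. The log2 difference was 0.16 ± 0.18 (SE, edgeR adjusted p = 0.54), and -0.028 when scaled by total counts. At 25 to 27 h against 18 to 20 h it was higher, at 0.62 ± 0.18, and also missed the threshold (SE, edgeR adjusted p = 0.040). Of the edited passenger only 1, 2 and 1 counts were found late and 1, 3 and 3 early, too few to test. The study lists several miRNAs as sensitive to EBAX-1, a factor in miRNA decay. None of the 11 tested here was called, where 8.81% of all miRNAs rose and 2.2% fell. Their median log2 difference was 0.16, which is the value of miR-235-3p itself, against -0.0025 over all miRNAs. The paper reports that the seed edit of this strain prevented the rhythmic decrease of miR-235. It also places the decline of miR-788 and miR-247 at about the last hour sampled here and later. Sensitivity to EBAX-1 was therefore not tested by these windows.

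The most abundant families took somewhat different shares in the windows, with no listed member past the threshold. The miR-58 family, related to bantam and the largest group, was listed as miR-58a-3p, miR-58b-3p, miR-80-3p, miR-81-3p and miR-82-3p. It took 38.0% ± 3.27 of counts late and 32.2% ± 2.04 early (SD, n = 3 each). Of its 4 tested members 0 were called, with log2 differences between 0.36 and 0.61. miR-58c was not in that list, and it rose (log2 difference 3.79 ± 0.56, SE, edgeR adjusted p = 0.00061) at no more than 6.89 CPM. The lead member of the family, miR-58a-3p, had 177218, 198746 and 195504 CPM late, against 104946, 199429 and 171431 CPM early, a difference within the spread of the early hours. The 5p guides of the miR-229 and miR-64 cluster took 10.5% ± 0.609 late and 8.72% ± 0.975 early (SD, n = 3 each), with 0 of 4 called and a median log2 difference of 0.54. miR-70-3p, also among the 10 most abundant, was higher without overlap, at 42298, 43672 and 38407 CPM late, against 17906, 32090 and 29857 CPM early, and missed the threshold (log2 difference 0.82 ± 0.22, SE, edgeR adjusted p = 0.022).

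Lower shares were seen in other abundant groups, again with no member called. The miR-72 family, which has the miR-31 seed, took 7.76% ± 0.783 late and 10.9% ± 0.886 early (SD, n = 3 each), and 2 of its 3 members were lower without overlap, where 32.6% of all miRNAs were. The miR-44 seed family took 4.54% ± 0.715 late and 6.80% ± 0.774 early (SD, n = 3 each), with 3 of 4 lower without overlap, again beside 32.6% of all. Within it the guides of miR-44 and miR-45 share reads, which leaves their separate values uncertain, and both had a log2 difference of -0.36. They do not count as 2 separate measurements among the 3. The miR-51 family, needed in the embryo, took 0.955% ± 0.0331 late and 1.46% ± 0.0743 early (SD, n = 3 each), with 4 of 6 lower without overlap (32.6% of all) and a median log2 difference of -0.34, against -0.0025 over all miRNAs. miR-57-5p, which acts in posterior patterning, had 43264, 48547 and 46834 CPM late, against 84507, 67232 and 67953 CPM early, and missed the threshold (log2 difference -0.48 ± 0.17, SE, edgeR adjusted p = 0.052).

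**Figure D3:**
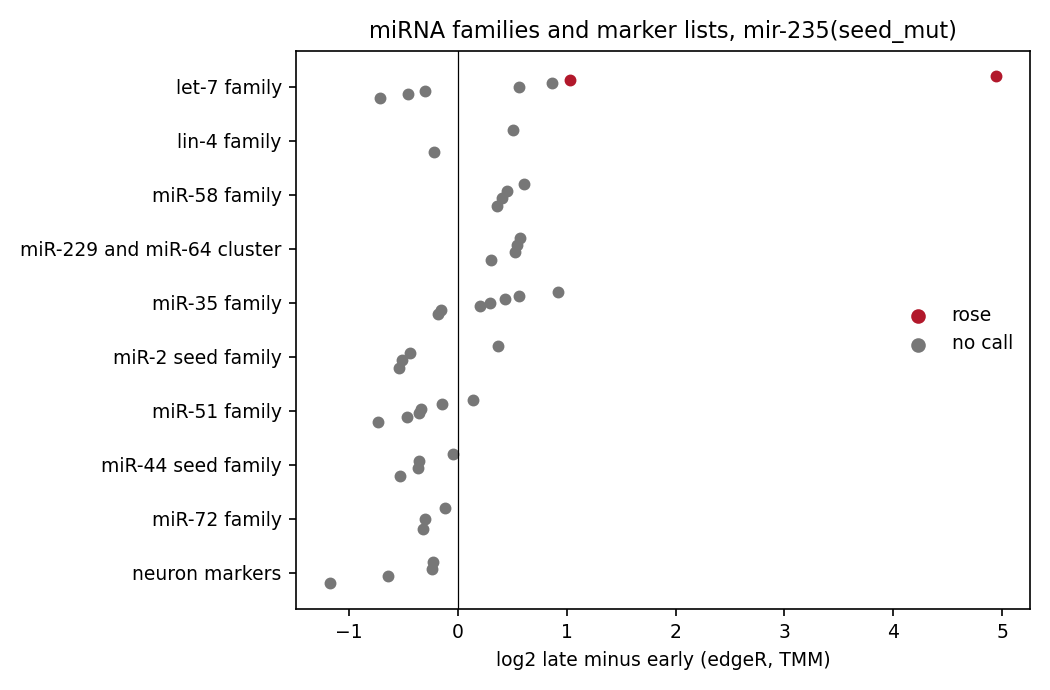
Log2 difference, late minus early, of each tested member of 8 miRNA families, the miR-229 and miR-64 cluster guides and the neuron markers in the mutant, with members that rose in red and members without a call in grey. Of the members shown, only let-7-5p (4.95) and miR-48-5p (1.03) were called, and the members of the other groups lie between -1.18 and 0.92. miR-58c, which rose, was not in the list of the miR-58 family and is not shown.

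Several further groups had no member called. The miR-35 family, which is required in embryos, summed to 1672, 1473 and 1838 CPM late, against 2055, 1203 and 1045 CPM early, with 0 of 7 tested members called and a median log2 difference of 0.30. Of 3 tested mirtrons, whose precursors are released by splicing, none was called, and of the 3 members of the miR-238 and miR-239 family none was called. The miR-2 seed family had 0 of 4 called and 2 of 4 lower without overlap. With 8.81% of all miRNAs called as rises, 2.2% as falls and 32.6% lower without overlap, nothing is read from these counts in groups so small.

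Markers of tissues gave the following levels. miR-1-3p, the muscle miRNA, overlapped between the windows at 40020, 26284 and 31769 CPM late, against 38467, 35342 and 39850 CPM early (log2 difference -0.03 ± 0.17, SE). miR-60-3p, an intestinal miRNA, also overlapped, at 115, 89.1 and 98.5 CPM late, against 50.9, 104 and 93.1 CPM early. The 4 neuron markers, lsy-6-3p, miR-124-3p, miR-790-5p and miR-791-3p, summed to 87.2, 77.9 and 72.5 CPM late, against 113, 117 and 115 CPM early. All 4 were lower without overlap, as were 32.6% of all miRNAs, and none was called, with the lowest difference of the 4 in miR-791-3p (log2 difference -1.18 ± 0.38, SE, edgeR adjusted p = 0.046). None of the markers was at 0 in any library. The part of tissue proportions in the rises and falls was not tested.

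All 10 miRNAs that the study or an earlier report names as rising in late L3 or L4 rose, with a median log2 difference of 5.36. That list was drawn up with results of such time courses known and is not independent evidence. The 13 hourly libraries of the mutant place the rises in time. Of the 20 miRNAs that rose, 17 had their highest level of all 13 hours at 30 h, and 19 were lower at 24 h than at each of 28, 29 and 30 h. The library of 24 h was itself out of line for some miRNAs. In it miR-54-3p had 7832 CPM, against 2072 at 23 h and 1990 at 25 h, and miR-2-3p had 2529 CPM, against 805 and 742. Others, such as miR-59-3p with 363 CPM between 338 and 398, were not, and values at 24 h rest on that library alone. let-7-5p climbed early, with 1765 CPM at 20 h, 10108 CPM at 21 h and 20489 CPM at 23 h. miR-85-3p first reached 50 CPM at 21 h, miR-357-3p at 24 h, miR-246-3p at 25 h, miR-5592-3p at 26 h and miR-240-3p at 29 h. For miR-357-3p the levels were 41.7 CPM at 23 h, 63.6 CPM at 24 h and 155 CPM at 25 h. A fixed level depends on abundance, and the more abundant miR-240-5p reached it at 20 h. Measured against their own late means, the order differed. The first hour at 50% of the late mean was 26 h for miR-240-3p, 27 h for miR-357-3p and 28 h for miR-5592-3p. It was 29 h for miR-85-3p and miR-246-3p. miR-59-3p had 398 CPM at 25 h, 1126 CPM at 27 h and 3200 CPM at 28 h. Of the 5 that fell, 4 had their lowest level of the 13 hours within 28 to 30 h, and the exception was miR-2221, at 3.41 CPM at 27 h. All 5 had their highest level within 18 to 20 h. These hourly levels include the 6 libraries of the test and are a description.

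**Figure D4:**
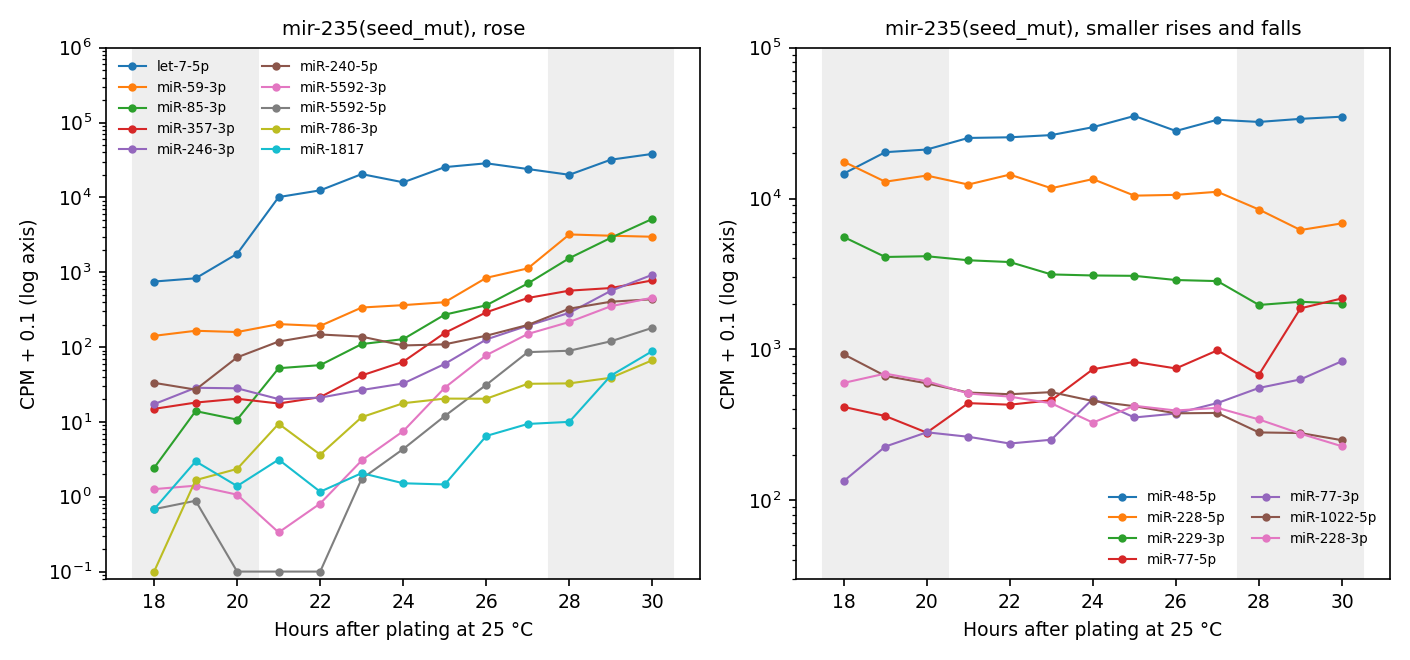
CPM plus 0.1 on a log axis in the 13 hourly libraries of the mutant against hours after plating, with the early and late windows shaded; the left panel shows 10 miRNAs that rose and the right panel 3 smaller rises and 4 falls. On the left let-7-5p is at 10108 CPM at 21 h, while miR-357-3p, miR-246-3p and miR-5592-3p start to climb from 23 h to 26 h.

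Many larval miRNAs also oscillate with the molting cycle, and windows 10 h apart do not sample the same phase. With 25, 26 and 27 h as the late window, 7 h after the early hours, 16 of 223 miRNAs tested rose (7.17%) and 3 fell (1.35%). With 21, 22 and 23 h as the early window, 7 h before the late hours, 17 of 224 rose (7.59%) and 3 fell (1.34%). Of the 25 calls, 10 were also called in both of these comparisons: miR-85-3p, miR-5592-3p, miR-5592-5p, miR-357-3p, miR-358-3p, miR-246-3p, miR-786-3p, miR-59-3p, miR-240-5p and miR-48-5p. Of the other calls, miR-1817, miR-58c, miR-246-5p and miR-358-5p were not tested at 25 to 27 h and could not be called there. These windows share libraries with the main comparison, so they are not independent of it.

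The shifted windows separated early from late rises. let-7-5p rose by 4.76 ± 0.35 on the log2 scale at 25 to 27 h against 18 to 20 h, but its difference at 28 to 30 h against 21 to 23 h was 1.25 ± 0.34 and missed the threshold (SE, edgeR adjusted p = 0.045). let-7-3p was at -0.0046 ± 0.31 (SE) there, against 2.76 over the full interval. miR-240-3p had 2.78 ± 0.58 from the 21 to 23 h window (SE, edgeR adjusted p = 0.018). None of the 5 falls was called at 25 to 27 h, and 3 of them, miR-1022-5p, miR-229-3p and miR-228-5p, were called against 21 to 23 h. miR-70-3p, not called over the full interval, was called against 21 to 23 h (log2 difference 0.61 ± 0.13, SE, edgeR adjusted p = 0.0084).

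The same windows were tested in N2 alone. There 22 of 227 miRNAs tested rose (9.69%) and 22 fell (9.69%). Of the mutant's 25 calls 22 were also called in N2, which is 88% of the mutant's calls and 50% of those of N2. The 3 called in the mutant alone were miR-58c, miR-359 and miR-228-5p, and 2 of these, miR-58c and miR-228-5p, had N2 libraries that differed in the same direction without overlap. let-7-5p had a log2 difference of 4.95 ± 0.41 in the mutant and 5.12 ± 0.25 in N2, miR-85-3p 8.65 ± 0.74 in the mutant and 8.76 ± 0.51 in N2, and miR-59-3p 4.50 ± 0.18 in the mutant and 4.41 ± 0.29 in N2 (SE).

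**Figure D5:**
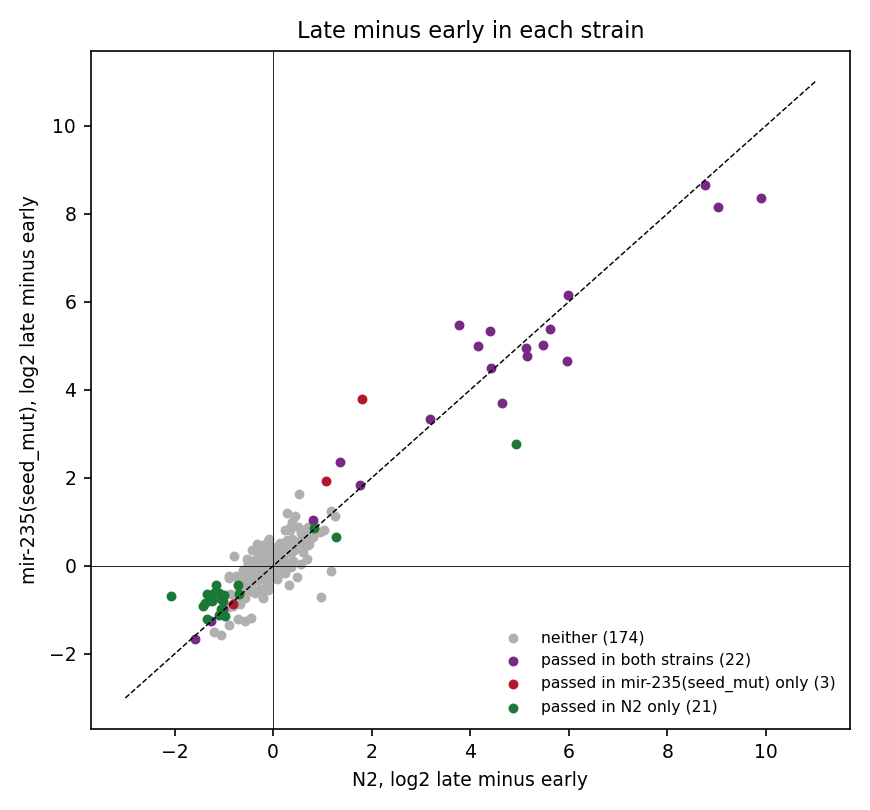
Log2 difference, late minus early, in the mutant (vertical) against N2 (horizontal) for the 220 miRNAs tested in both strains, with a dashed line of equality; colours mark the 22 that passed the test in both strains, the 3 in the mutant alone, the 21 in N2 alone and the 174 in neither. The miRNAs with rises above 3 in the mutant lie above 0 in N2 as well.

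The difference between the strains in late minus early was then tested in 12 libraries. Of the miRNAs tested, 0 passed the threshold (0%), 5 had an unadjusted p below 0.05, and the smallest adjusted p was 0.482 (edgeR quasi-likelihood test of the interaction). DESeq2 and limma also called 0, with 3 and 8 at an unadjusted p below 0.05. The SE of this difference on the log2 scale was 0.31 for miR-59-3p and 0.45 for let-7-5p, but 0.94 for miR-5592-3p and 1.70 for miR-1817. Large differences could thus be missed for some miRNAs, and the lack of calls does not show that the strains changed alike. The 3 smallest p-values belonged to miR-83-3p, miR-243-5p and miR-5546-3p, and miR-83-3p and miR-5546-3p were below 10 CPM in each of the 12. For miR-235-3p the difference of the changes, mutant minus N2, was 0.57 ± 0.41 (SE, edgeR adjusted p = 0.98). In N2 the late window was itself uneven, with 52857 counts of wild-type miR-235-3p at 28 h and 27358 at 30 h. The library totals there were 2883606 and 3307017 counts. The windows also skip the hours after 20 h, and the paper describes a steep wild-type decline from about 21 h. This test therefore does not measure that decline. The strain and the culture it was grown in cannot be told apart. The 18 miRNAs that fell in N2 without a call in the mutant all had negative differences there too.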

How the data were processed

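Raw counts of mature miRNAs were deposited by the authors, who trimmed adapters, mapped them to ce10 in QuasR, which calls Bowtie (version: not given in the sources used here), and counted same-strand reads starting within 3 bp of the 5′ end of miRBase 22 entries. Libraries were made with the CleanTag kit from gel-selected small RNA. The sources used here do not state how edited miR-235 reads were assigned, and counts of the 2 alleles were added for each arm. The authors' second table, of normalized log2 values, was not used.

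Tests of counts used R 4.3.3 and edgeR 4.0.16 (filterByExpr by window, TMM, estimateDisp, robust glmQLFit, glmQLFTest) and Benjamini-Hochberg adjustment, with a threshold of 0.01. SEs are the log2 difference over the square root of F. CPM uses library totals and fold changes use TMM, so the 2 scales can differ in sign for small changes. Sums of 3 libraries were compared by exact 95% intervals. Reads carry no molecular identifiers, and both these intervals and the 3-count floor speak to counting error alone.

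Nothing states that the hours come from separate cultures, and p-values reflect how the hours of a window differ, including any change over those hours. No library pair looked like a duplicate. The members and lists were chosen with earlier results of these data known, and the list of late risers holds miRNAs named in the study or in an earlier report. Named miRNAs were both arms of miR-235, up to 12 with the largest and 12 with the lowest differences among calls whose mean count reached 50, the 10 most abundant, those with at most 3 counts in each early and at least 50 in each late library, list members, the 3 smallest p-values of the strain difference and the other arms of these hairpins. Of the calls, 7 had a mean below 50 counts: miR-358-3p, miR-359, miR-786-5p, miR-2221, miR-358-5p, miR-246-5p and miR-58c. Of these miR-58c and miR-2221 fall outside the rule and were chosen after their values were seen. In counts simulated for the mutant comparison over 223 tested miRNAs, 65% of changes of 1 and 95% of changes of 2 on the log2 scale were recovered, with 1 false call. Those counts were drawn independently with the spread fitted to these same libraries. They hold no trend within a window and no library that stands apart, so these rates do not carry over to the real calls. miRNAs were matched to genes by name in WBcel235 (117 of 119 matched). Genes that enclose a hairpin, and miRNA neighbours within 1 kb on the same strand, come from the coordinates of that annotation. Alternatives were DESeq2 size factors, total counts, no filter, a mean of 50 counts, DESeq2 1.42.0, limma 3.58.1 (pseudocounts 8 and 1), a threshold of 0.05, a 12-library fit, shifted windows, the edited allele alone, each library left out and, for the strain difference, the hour as a block.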

Additional observations from a re-analysis of the deposited data

Results flagged for a closer look

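For 2 of the named miRNAs the windows separated in opposite directions in the strains. miR-83-3p had a log2 difference, late minus early, of -0.71 in the mutant and 0.97 in N2. All 3 late libraries were below all 3 early ones in the mutant, and all 3 were above in N2. Its levels were 4.44, 3.37 and 3.28 CPM late and 6.99, 6.53 and 7.41 CPM early in the mutant, against 3.47, 4.74 and 3.93 CPM late and 1.31, 2.12 and 2.66 CPM early in N2, or 10 to 25 counts per mutant library. miR-243-5p had -0.25 in the mutant and 0.49 in N2, with 288, 183 and 218 CPM late and 337, 290 and 301 CPM early in the mutant. Neither difference between the strains passed the test (edgeR interaction test, adjusted p = 0.48 for miR-83-3p and 0.92 for miR-243-5p), and both miRNAs were named for their small p, so the separation is no independent evidence.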

How the results depend on the processing

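The number of rises stayed within 1.5 times the 20 reported under every alternative except a threshold of 0.05 (38), and without single libraries it ranged from 17 to 26. The number of falls, 5, was 12 with total counts, 8 without a filter, 9 with DESeq2, 11 with limma at a pseudocount of 8, 19 in the 12-library fit, 3 with 25 to 27 h as late, 3 with 21 to 23 h as early and 18 at a threshold of 0.05. Without single libraries it ranged from 0 to 10. The unfiltered fit tested 366 miRNAs and otherwise the cause was not tested. Of the 25 calls 15, all rises, were kept without each library in turn. Counting the edited allele alone gave the same 25.

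Small differences without a call changed sign. miR-235-3p was at -0.028 with total counts and -0.014 with limma at either pseudocount. miR-71-5p (-0.0088) was at 0.064 without a filter, 0.56 with 25 to 27 h as late and 0.20 with 21 to 23 h as early, and ranged from -0.20 to 0.25 without single libraries. miR-1-3p was at 0.038 without a filter and 0.10 with 21 to 23 h as early, and ranged from -0.14 to 0.12 without single libraries. With 21 to 23 h as early, miR-83-3p was at 0.014, miR-794-5p at 0.092, lin-4-5p at 0.013 and let-7-3p at -0.0046, and with 25 to 27 h as late, miR-795-5p was at 0.15 and lin-4-5p at 0.00025. let-7-3p passed the threshold without the library of 20 h (log2 difference 4.08).

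The difference between the strains had 0 calls under every alternative run, including a threshold of 0.05 and each of the 12 libraries left out. With SEs as wide as those given above, this does not show equal changes. With the hour as a replicate block it was also 0, with 4 at an unadjusted p below 0.05. Deviations of same-hour libraries of the strains from their window means correlated at 0.118, -0.14 and 0.262 at 28, 29 and 30 h. At 18, 19 and 20 h the correlations were 0.0289, -0.259 and 0.466. Of the 6 pairs 3 were thus over 0.1, and 2 of 6 correlated best with their own hour among the 3 of the window.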

Other observations

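Some scarce strands had differences above 1 in size on the log2 scale without a call. miR-45-5p, the passenger of a miR-44 seed family guide, had 435, 295 and 208 CPM late, against 921, 621 and 817 CPM early, without overlap (log2 difference -1.15 ± 0.28, SE, edgeR adjusted p = 0.015). The mirtron miR-1018 had 20.1, 17.5 and 11.8 CPM late, against 58.5, 30.8 and 32.9 CPM early (log2 difference -1.11 ± 0.32, SE, edgeR adjusted p = 0.029). lin-4-3p, the passenger of *lin-4*, had 6.0, 25.6 and 24.3 CPM late, against 5.82, 9.67 and 4.51 CPM early. Its windows overlapped through the library of 28 h (log2 difference 1.64 ± 0.54, SE, edgeR adjusted p = 0.051).

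The arms of miR-71, a miRNA linked to lifespan, differed from each other. The guide miR-71-5p overlapped between the windows, at 54386, 41109 and 27460 CPM late, against 36618, 43532 and 60569 CPM early, falling hour by hour late and climbing hour by hour early. The passenger miR-71-3p had 486, 312 and 266 CPM late, against 728, 611 and 653 CPM early, without overlap (log2 difference -0.72 ± 0.24, SE, edgeR adjusted p = 0.050).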
